A study of Mus musculus with 9 samples.

Results

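Droplet-based scRNA-seq of 9 mouse kidneys was searched for 8 genes of the renin-angiotensin system and of the surface peptidases that cut its peptides, namely Ren1, Agt, Ace, Agtr1a, Enpep, Mme, Anpep and Atp6ap2. They were chosen by name as 8 of the 32427 genes in the files, all 8 were measured, and each was followed by mouse, by group and by marker-defined cell type. All mice were male C57BL/6 and 6 weeks old on arrival. The 3 Control mice received saline, the 3 AKI-CKD mice received 4 weekly intraperitoneal injections of the nephrotoxic drug cisplatin at 8 mg/kg, and the 3 AKI-CKD + EGT mice received the same cisplatin injections plus the dietary antioxidant ergothioneine (EGT) at 0.5 mg/mL in drinking water, begun before the cisplatin. Kidneys were taken after 8 weeks, so the libraries show the late state of a repeated toxic injury in male mice and not the acute phase.

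In the renin-angiotensin system, renin cuts angiotensinogen to angiotensin I, and angiotensin-converting enzyme turns this into angiotensin II, which acts on the type 1 receptor to constrict vessels and to promote sodium retention. Renin is released by juxtaglomerular cells, which are modified smooth muscle cells of the afferent arteriole. Membrane peptidases then trim or destroy the peptides, among them glutamyl aminopeptidase (Enpep), neprilysin (Mme) and alanyl aminopeptidase (Anpep), which are also classical brush border enzymes. Atp6ap2, the prorenin receptor, is at the same time an accessory subunit of the vacuolar proton pump.

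The matrices held 70106161 to 101525691 UMIs (unique molecular identifiers, each standing for a captured mRNA molecule) per mouse, and 196925 of 216680 barcodes were kept at a median of 2714 UMIs per cell. The limit of 15% mitochondrial UMIs removed 0.909% to 27.7% of the barcodes of a mouse, most in AKI-CKD + EGT mouse 3, followed by Control mouse 1 with 17.0%. No kept cell had identical counts in 2 libraries. Marker genes assigned 163628 cells to the proximal tubule (PT), 7879 to the distal convoluted tubule (DCT), 6261 to the thick limb of the loop of Henle (LOH), 4023 to the connecting tubule (CNT), 2467 to collecting duct principal cells (CD-PC), 1501 to intercalated cells (CD-IC) and 634 to the thin limb. A further 3613 were endothelial cells (Endo), 575 mural cells, 347 podocytes, 2472 macrophages (Macro), 938 T cells, 721 B cells and 940 cycling cells, and 926 stayed unnamed. PT cells thus made up 83.1% of the kept cells, and the summed level of 6 PT genes (Slc34a1, Slc22a6, Slc5a12, Slc13a3, Slc27a2 and Miox) was still 34.2% to 71.7% of the PT level in the other cell types. T cells, which should lack most of the members, served as the background (938 cells, median 2313 UMIs). Another measure of background was the ratio of a gene's UMIs to those of the 6 PT genes, set to 1 in PT cells, since free RNA of PT origin keeps that ratio. Levels are given as CPM, that is UMIs per 1000000 UMIs of the cell type in a mouse, as mean ± SD over 9 mice. They describe where each gene was counted and carry no test.

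**Figure D1:**
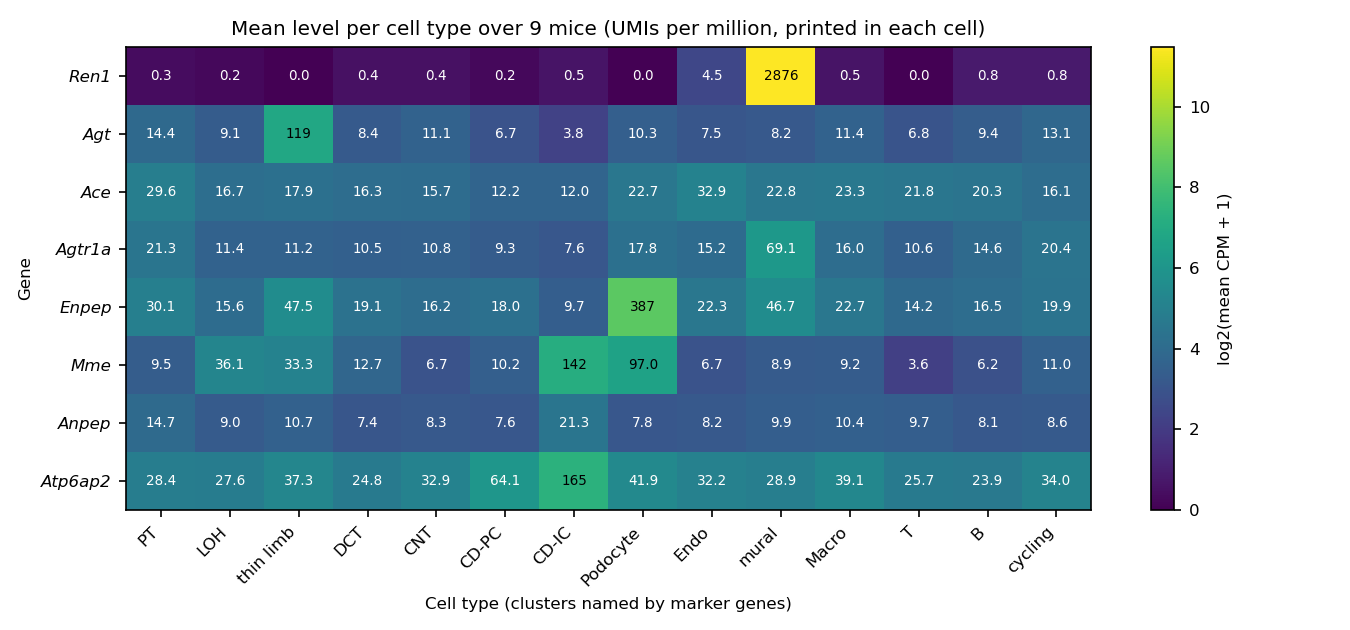
Heat map of the 8 genes (rows) in 14 cell types (columns). Each cell prints the mean CPM over 9 mice and is coloured by log2(mean CPM + 1). Ren1 stood at 2876 CPM in mural cells and at 4.49 or less in all other types, Agt peaked in the thin limb, Enpep in podocytes, and Mme and Atp6ap2 in CD-IC cells.

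Ren1 encodes renin, and its mRNA was mostly in mural cells. Of 4621 Ren1 UMIs in the kept cells, 4336 (93.8%) fell in the 575 mural cells, which are 0.292% of all kept cells. A single mural cell of Control mouse 3 held 2590 of these UMIs. By mouse, the mural share of Ren1 UMIs ranged from 69.6% in AKI-CKD mouse 1 to 95.7% in Control mouse 3. A Ren1 UMI was found in 96 mural cells (16.7%), compared with 181 of the PT cells (0.111%). It was found in 0 of 938 T cells, 0 of 634 thin limb cells and 0 of 347 podocytes, which allows shares of up to 0.320%, 0.473% and 0.865% of cells with a Ren1 UMI in these types by counting error alone, and sets no limit on cells that express the gene below this depth. Thinned to 1000 UMIs per cell, the share of mural cells with a UMI was 12.8%. The mural level was 2876 ± 6499 CPM, with a lowest value of 312, a median of 712 and a highest value of 20169, and its range lay wholly above that of endothelial cells (4.49 ± 6.15 CPM), the next in order. Endothelial cells overlapped in turn with the cell types below them.

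The promoters of the renin gene, of the angiotensinogen gene and of Atp6ap2 are shown because the first pair holds a TATA motif where a core promoter carries one and the third does not. They are RefSeq sequences of build GRCm38.p6, each from 250 bases before to 50 bases after the start site and read 5′ to 3′ on the strand of the gene, whereas the submitters' processing notes name GRCm39 for the matrices. Ren1 lies on the plus strand at chr1:133350424-133350723, Agt on the minus strand at chr8:124569657-124569956 and Atp6ap2 on the plus strand at chrX:12587509-12587808. Capitals mark TATAAA in Ren1 and Agt and TGACG in Atp6ap2.
Ren1: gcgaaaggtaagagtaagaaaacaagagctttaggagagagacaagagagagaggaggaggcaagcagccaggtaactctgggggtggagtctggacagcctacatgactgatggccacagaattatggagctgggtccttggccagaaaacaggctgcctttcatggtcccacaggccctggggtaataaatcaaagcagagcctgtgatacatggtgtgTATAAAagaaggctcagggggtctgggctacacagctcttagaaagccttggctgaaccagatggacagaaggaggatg
Agt: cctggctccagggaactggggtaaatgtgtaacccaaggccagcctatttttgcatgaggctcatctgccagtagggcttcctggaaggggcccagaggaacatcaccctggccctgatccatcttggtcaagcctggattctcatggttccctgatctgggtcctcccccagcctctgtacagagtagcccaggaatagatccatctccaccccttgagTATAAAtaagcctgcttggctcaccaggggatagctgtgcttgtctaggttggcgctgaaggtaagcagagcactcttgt
Atp6ap2: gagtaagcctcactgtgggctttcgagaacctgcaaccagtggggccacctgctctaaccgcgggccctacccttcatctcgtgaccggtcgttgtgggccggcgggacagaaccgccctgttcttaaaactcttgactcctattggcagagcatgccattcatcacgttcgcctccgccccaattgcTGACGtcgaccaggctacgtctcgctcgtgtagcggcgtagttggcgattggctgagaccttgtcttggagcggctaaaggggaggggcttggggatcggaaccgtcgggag
TATAAA began at position -29 in Ren1 and -30 in Agt, counted from the start site. Windows were found for 7 of the 8 genes (10 windows, none for Agtr1a), and both strands were searched for TATAAA and for TGACG, which do not overlap each other. On the strand of the gene, TATAAA was present in 2 of the 10 windows and in 8.32% of all 32851 windows. On either strand it was present in 4 of them (Ren1, Agt, Ace and Enpep) and in 13.6% of all windows. TGACG was present in Atp6ap2 only, at position -62, and in 20.8% of all windows on either strand. These are matches of letters and say nothing of binding.

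Renin cells were also counted directly, as cells with at least 5 Ren1 UMIs. There were 63 such cells, of which 56 were mural, 4 endothelial and 3 PT cells. Control mice 1, 2 and 3 had 9, 6 and 8 of them, AKI-CKD mice 6, 9 and 3, and AKI-CKD + EGT mice 8, 6 and 8, and the 3 groups overlapped. The frequency was 3.12 ± 0.874 per 10000 kept cells in Control, 2.85 ± 1.70 in the AKI-CKD mice and 4.02 ± 1.09 with EGT (SD, n = 3 each). AKI-CKD differed from Control by -0.272 per 10000 (exact two-sided permutation test, p = 0.9) and AKI-CKD + EGT from AKI-CKD by 1.17 (same exact test, p = 0.4, not adjusted for the 2 comparisons), where 3 mice against 3 cannot go below p = 0.1. Single mice moved the difference between AKI-CKD and Control across zero, from -1.18 without AKI-CKD mouse 2 to 0.508 without AKI-CKD mouse 3, and the difference between AKI-CKD + EGT and AKI-CKD ranged from 0.387 to 2.08 when each mouse was left out.

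The 63 renin-rich cells also carried smooth muscle genes. Summed over cells, Acta2 stood at 3801 CPM in them and at 4977 CPM in the 519 other mural cells, Tagln at 2815 and 3368, Myh11 at 1383 and 1658, Rgs5 at 2798 and 2701, and Notch3 at 607 and 475. Akr1b7, an aldo-keto reductase known as a renin cell marker, was at 1061 CPM (257 UMIs) against 140 CPM (271 UMIs), with a UMI in 66.7% and 23.9% of cells at median depths of 2584 and 3046 UMIs. Itga8, an integrin subunit of mesangial and other mural cells, went the other way, with 16.5 CPM on 4 UMIs against 70.3 CPM. The receptor gene Agtr1a was present in both, at 86.7 CPM (21 UMIs) and 65.1 CPM (126 UMIs). No UMI of Ace or Mme was counted among the 242279 UMIs of the 63 cells, which allows up to 12.4 CPM by counting error alone. Ace was at 25.3 CPM in the other mural cells, above this limit but near the T cell background of 21.8 CPM. Mme was at 7.75 CPM, so a difference in Mme was not detectable at this depth. Mural Ace was also uneven, at 56.6 and 48.6 CPM in the parts of the mural cluster with 3 and 4 renin-rich cells. It was at 6.51, 10.6 and 12.1 CPM in those with 16, 13 and 20 renin-rich cells. The part of background and of this unevenness in the Ace values was not tested. The 63 cells were chosen by Ren1 in these same libraries. Acta2, Tagln, Myh11, Rgs5, Notch3, Akr1b7 and Itga8 were also among the markers that named the mural class, to which most of these cells belong. These figures are therefore a description and no test of what renin-rich cells are.

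The Ren1 level of the mural cells rested on very few cells. In Control mouse 3 a single mural cell with 8912 UMIs held 2590 Ren1 UMIs, which was 29.1% of its own mRNA and 86.0% of all Ren1 UMIs of that mouse. The same cell had 49 Akr1b7 UMIs and 31 of Rgs5, but 2 of Acta2. In the other 8 mice the richest cell held 24 to 266 Ren1 UMIs, or 25.6% to 67.2% of the mouse's total.

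**Figure D2:**
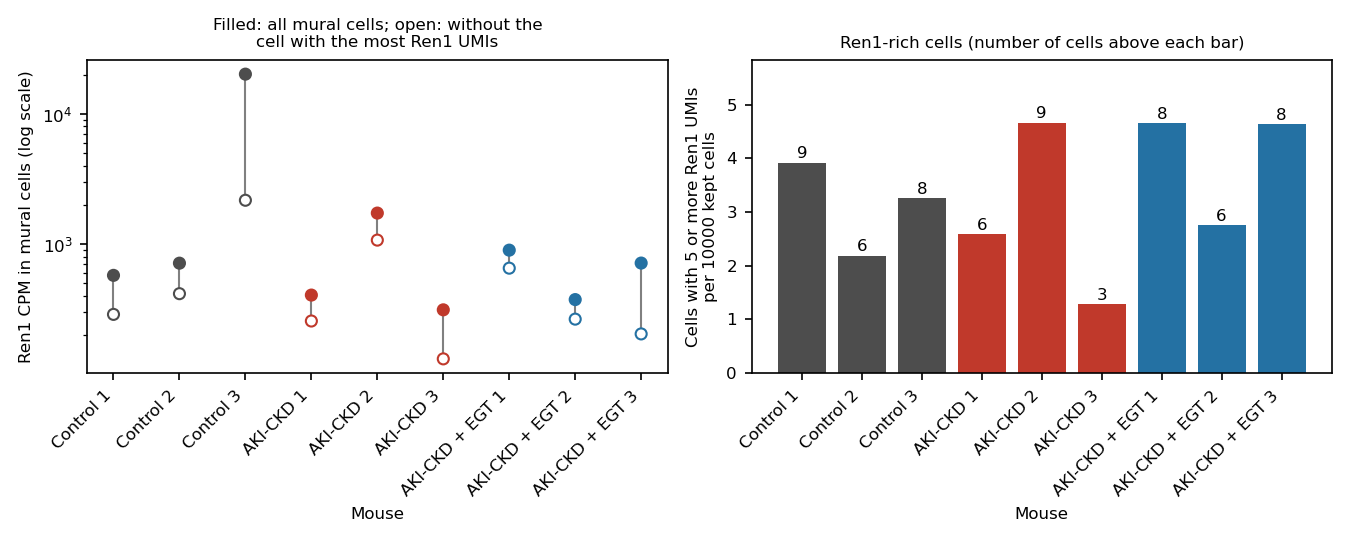
Left, Ren1 CPM in mural cells of each mouse on a log axis, for all mural cells (filled points) and without the cell with the most Ren1 UMIs (open points). Right, cells with at least 5 Ren1 UMIs per 10000 kept cells, with their number above each bar. Control mouse 3 fell from 20169 to 2166 CPM when 1 cell was left out, whereas its number of renin-rich cells was 8.

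On total UMIs the mural Ren1 level was 574, 712 and 20169 CPM in the Control mice, 405, 1727 and 312 CPM in the AKI-CKD mice and 896, 374 and 713 CPM in the AKI-CKD + EGT mice. The groups overlapped, and Control mouse 3 lay far above all others. The fitted log2 fold change in AKI-CKD compared with Control was -3.07 (SE 1.00), with an unadjusted p of 0.0070 and a Benjamini-Hochberg adjusted p of 0.698 (edgeR), and it became 0.35 without Control mouse 3. Without the filter on low counts it was -2.98 and was called (edgeR, adjusted p = 4.197e-24), and a fit without both the filter and Control mouse 3 was not made. The unfiltered fit used the same mural counts, in which the groups overlapped. The exact permutation test on these levels, given below, had p = 0.5. The edgeR p without the filter therefore does not measure the spread between these mice. Without the richest cell of each mouse, an alternative chosen after seeing the data, the levels were 288, 415 and 2166 CPM in Control, 256, 1070 and 131 CPM in the AKI-CKD mice and 652, 265 and 204 CPM with EGT. The difference in mean log2(CPM + 1) between AKI-CKD and Control was then -0.95 in place of -1.75 (exact permutation test, p = 0.5 for both).

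Agt encodes angiotensinogen, the substrate of renin. Its highest level was in the thin limb, at 119 ± 35.1 CPM (lowest 68.2, median 111, highest 171), which was 8.28 times the PT level and did not overlap with it. An Agt UMI was found in 24.1% of thin limb cells (median 3002 UMIs) and in 1.60% of T cells, and after thinning to 1000 UMIs in 11.0% and 0.514%. The ratio to the 6 PT genes was 20.2 times that of PT cells, and it was above 1 in 9 of 9 mice. Within the PT, where angiotensinogen is known to come mainly from the straight segment, the level was 24.6 ± 8.35 CPM in cells with S3 markers and 7.27 ± 1.72 CPM in cells with S1 markers, the latter close to the 6.81 CPM of T cells. A small S3-like cluster of 272 cells, picked out after its values were seen, reached 211 CPM.

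By group, the thin limb level of Agt on total UMIs was 102, 157 and 107 CPM in the Control mice, 147, 133 and 171 CPM in the AKI-CKD mice and 78.3, 68.2 and 111 CPM in the AKI-CKD + EGT mice. All AKI-CKD values were above all AKI-CKD + EGT values, on 13 to 57 UMIs per mouse in these groups, while Control overlapped with both. Thin limb cells were not among the populations fitted, so this difference has no test. Of 8990 genes with a mean of at least 10 CPM in the thin limb, 15.8% did not overlap in this comparison, and Agt alone did not among the 7 members that reached this level. In AKI-CKD compared with Control it was Ace alone, where 18.1% of genes did not overlap, with 4.86, 9.53 and 13.3 CPM in Control and 22.6, 15.6 and 23.97 CPM in the AKI-CKD mice, on 1 to 8 UMIs per mouse. In PT cells Agt was 11.6, 16.6 and 22.9 CPM in Control, 16.3, 11.0 and 21.5 CPM in the AKI-CKD mice and 10.6, 16.2 and 5.58 CPM with EGT, and all groups overlapped.

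Ace encodes angiotensin-converting enzyme, which sits on endothelium and on the PT brush border. The order of its levels was endothelial cells at 32.9 ± 9.98 CPM, PT cells at 29.6 ± 12.4 CPM and macrophages at 23.3 ± 8.85 CPM, with overlap between all neighbours. T cells had 21.8 ± 21.1 CPM, and their ratio to the 6 PT genes was 1.26, so Ace stood to the PT genes in T cells about as it did in PT cells. Endothelial cells had a ratio of 2.31, above 1 in 8 of 9 mice. The clear pattern was inside the PT: S3-like cells had 56.3 ± 19.6 CPM (lowest 33.0, median 51.1, highest 97.6) and S1-like cells 9.31 ± 3.52 CPM (lowest 4.25, highest 15.9), so the ranges did not overlap. An unnamed cluster of 660 cells with markers of monocytes and dendritic cells had 59.1 CPM. These counts do not separate the somatic from the testis form of the enzyme.

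Agtr1a encodes the main type 1 angiotensin II receptor of the mouse. It was highest in mural cells, at 69.1 ± 25.4 CPM (lowest 49.6, median 58.1, highest 123), 3.24 times the PT level and without overlap. Summed over mice, it ranged from 35.8 to 108 CPM between the parts of the mural cluster. The part with 108 CPM had the fibroblast marker Dcn among its leading genes, beside mural markers. The share of this unevenness in the mural level was not tested. A UMI was found in 17.7% of mural cells and 2.88% of T cells, or 7.13% and 0.796% after thinning. PT cells followed at 21.3 ± 2.10 CPM, with more in S1-like cells (24.98 ± 2.65 CPM) than in S3-like cells (19.8 ± 2.45 CPM), the reverse of the order for Agt and Ace, although these ranges overlapped. T cells had 10.6 CPM.

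Enpep encodes glutamyl aminopeptidase, which turns angiotensin II into angiotensin III. Its highest level was in podocytes, at 387 ± 258 CPM (lowest 119, median 346, highest 928), 12.8 times the PT level, and no other cell type reached this range. A UMI was found in 34.0% of podocytes at a median of 2169 UMIs and in 4.37% of T cells. The podocyte class joined a part of 114 cells with 741 CPM of Enpep to a part of 233 cells with 68.9 CPM of Enpep, and the part of this mixture in the spread between mice was not tested. The thin limb (47.5 ± 13.3 CPM), mural cells (46.7 ± 15.5 CPM) and the PT (30.1 ± 4.65 CPM) came next and overlapped, and T cells had 14.2 CPM.

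Mme encodes neprilysin, which makes angiotensin 1-7 from angiotensin I and degrades natriuretic peptides. Although known as a brush border enzyme, it was at only 9.52 ± 2.25 CPM in PT cells, compared with 142 ± 45.3 CPM in CD-IC cells (lowest 80.8, median 142, highest 222), a level 14.9 times higher. Podocytes had 97.0 ± 68.5 CPM, LOH cells 36.1 ± 10.7 CPM and the thin limb 33.3 ± 17.1 CPM, and T cells 3.58 CPM. The podocyte value was again uneven, with 172 CPM in the part of 114 cells and 16.5 CPM in that of 233 cells. The neighbours in this order overlapped down to the thin limb, which lay wholly above DCT cells (12.7 ± 2.44 CPM). The ratio to the 6 PT genes was 39.0 in CD-IC cells and 6.41 in LOH cells, above 1 in 9 of 9 mice in both. A UMI was found in 25.4% of CD-IC cells (median 3214 UMIs) and in 1.17% of T cells. Among PT cells the S3-like part was highest, at 14.1 ± 3.48 CPM against 6.26 ± 1.18 CPM in S1-like cells, without overlap.

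Anpep encodes alanyl aminopeptidase, which turns angiotensin III into angiotensin IV. It was low throughout, at 21.3 ± 7.27 CPM in CD-IC cells, 14.7 ± 1.49 CPM in PT cells and 9.71 ± 6.09 CPM in T cells, and neighbours in the order overlapped. CD-IC cells had a ratio of 4.2 to the 6 PT genes, above 1 in 9 of 9 mice, on 133 UMIs in all. S1-like and S3-like PT cells had 14.7 ± 1.69 and 15.97 ± 2.05 CPM.

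Atp6ap2 was detected in every cell type and was highest in CD-IC cells, which pump protons, at 165 ± 27.8 CPM (lowest 123, median 159, highest 219), 5.81 times the PT level. This range did not overlap with that of CD-PC cells, the next in order, at 64.1 ± 19.4 CPM. A UMI was found in 36.0% of CD-IC cells and in 7.36% of T cells. PT cells had 28.4 CPM and T cells 25.7 CPM. The ratio to the 6 PT genes was 16.2 in CD-IC cells, 5.46 in CD-PC cells, 3.32 in the thin limb, 2.36 in endothelial cells and 2.27 in CNT cells, above 1 in 9 of 9 mice in each. In the other types it ranged from 1.39 in B cells to 2.02 in cycling cells, with 1.79 in T cells, where it was above 1 in 6 of 9 mice.

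CD-IC cells held the highest levels of 3 members, and they were therefore divided, after the data were seen, into 369 cells with a UMI of Slc4a1, the anion exchanger of acid-secreting type A cells, and 619 cells with a UMI of Slc26a4 (pendrin), of bicarbonate-secreting cells, leaving out 34 cells with both and 479 with neither. Mme stood at 401 ± 109 CPM in the Slc4a1 cells (lowest 292, highest 634) and at 28.8 ± 16.4 CPM in the Slc26a4 cells (lowest 2.81, highest 57.4), a 13.9-fold difference with no overlap between mice. Atp6ap2 had the opposite order, at 121 ± 31.4 CPM (lowest 90.2, highest 177) and 224 ± 23.1 CPM (lowest 199, highest 257), which was 1.85-fold higher in the Slc26a4 cells and again without overlap. Anpep did not separate them, at 25.7 ± 10.7 and 19.5 ± 10.2 CPM. The median depths were alike, at 3795 and 4045 UMIs per cell. All 3 groups of mice showed both orders, although each mouse contributed only 24 to 61 Slc4a1 cells and 29 to 150 Slc26a4 cells.

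**Figure D3:**
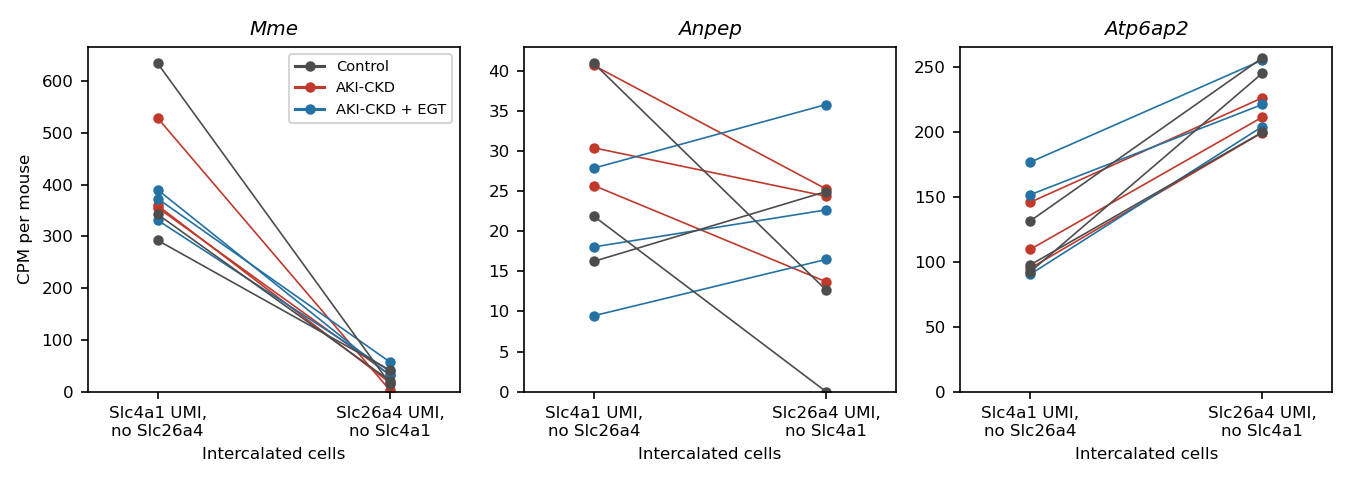
CPM of Mme, Anpep and Atp6ap2 in the 2 kinds of intercalated cells, with a line for each of the 9 mice coloured by group. The Mme lines all fell from 292 to 634 CPM in Slc4a1 cells to 57.4 CPM or less in Slc26a4 cells, the Atp6ap2 lines all rose, and the Anpep lines crossed.

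The genes with the most similar distribution were searched for among 12650 genes with at least 10 CPM in any of the 14 cell types, by the Pearson correlation of log2(mean CPM + 1). The points share libraries and free RNA, and each set of genes rests largely on the cell type with the highest level. Ren1 was closest to Kcna5 (r = 0.996), Or51e1 (r = 0.994) and Npy1r (r = 0.994), all highest in mural cells. Agt was closest to Slc39a8 (r = 0.954), Slc1a2 (r = 0.950) and Podn (r = 0.934), all highest in the thin limb, and Agtr1a to Rarres2 (r = 0.939), Gamt (r = 0.932) and Fhl1 (r = 0.911), all highest in mural cells. Enpep was closest to Gm15866 (r = 0.953), Mmp23 (r = 0.952) and the podocyte transcription factor gene Tcf21 (r = 0.940). Atp6ap2 was closest to Fetub (r = 0.944), the intercalated cell marker Kit (r = 0.934) and Guca2a (r = 0.931), all highest in CD-IC cells. The correlations were lower for Mme, with Ift20 (r = 0.905), Vdac2 (r = 0.897) and Ogfod3 (r = 0.888), for Ace, with Cd36 (r = 0.897), Fmo5 (r = 0.893) and Elovl1 (r = 0.883), and for Anpep, with Scand1 (r = 0.852), Acp6 (r = 0.851) and the proton pump subunit gene Atp6v0c (r = 0.841).

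To ask whether cisplatin or EGT changed these genes, UMIs were summed per mouse in all kept cells and in PT, LOH, DCT, endothelial and stromal cells (the last being the mural class, since no fibroblast class was found), and edgeR was fitted to all genes. A sum cannot tell fewer cells of a kind from less RNA per cell. The 2 comparisons share the AKI-CKD mice, so they are not independent, and a gene was called at an adjusted p under 0.05. None of the 8 members was called in any population or comparison by edgeR with the filter on low counts. Without that filter 1 was called, Ren1 in stromal cells of AKI-CKD compared with Control, as given above. DESeq2 gave no adjusted p for 43 of 80 member fits, among them every member fit in DCT and endothelial cells and those in LOH cells of AKI-CKD compared with Control, so it could make no call there, and it called none of the other 37. In PT cells 0 of 8 were called in AKI-CKD compared with Control, where 0.0444% of all 18019 genes were called, and 0 of 8 in AKI-CKD + EGT compared with AKI-CKD, where 0% of genes were. Without AKI-CKD + EGT mouse 1 the number of genes called after EGT rose from 0 to 228 in PT cells, from 0 to 361 in DCT cells and from 33 to 243 in LOH cells, and 0 members were among them. Unadjusted p-values fell under 0.05 for 2 and 0 members in PT cells, compared with 10.9% and 15.2% of all genes. The share called among all genes in the 2 comparisons was 0.0199% and 0.00496% in all kept cells (8 members tested), 0.0288% and 0.316% in LOH cells, 0.00891% and 0% in DCT cells, 0% and 0.00966% in endothelial cells (7 members each, without Ren1) and 0% and 0% in stromal cells (Ren1, Agtr1a and Enpep). At an unadjusted p under 0.05 the members numbered 1 and 0 of 8 in all kept cells (8.02% and 12.7% of all genes), 0 and 0 of 7 in LOH cells (10.6% and 13.5%), 2 and 2 of 7 in DCT cells (9.78% and 14.02%), 1 and 1 of 7 in endothelial cells (9.88% and 9.89%) and 1 and 0 of 3 in stromal cells (6.84% and 8.71%).

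In PT cells Ace had the largest log2 fold change after Ren1 in AKI-CKD compared with Control, and Agt had the largest in AKI-CKD + EGT compared with AKI-CKD. The Ace level was 23.1, 38.7 and 57.4 CPM in Control, 26.8, 14.4 and 24.3 CPM in the AKI-CKD mice and 21.8, 36.7 and 23.5 CPM with EGT. All 3 groups overlapped, and Control mouse 3 was the highest. The log2 fold change was -0.86 (SE 0.33, unadjusted p = 0.025, adjusted p = 0.413) in AKI-CKD compared with Control, or -0.50 without Control mouse 3, and 0.32 (SE 0.33, adjusted p = 0.665) in AKI-CKD + EGT compared with AKI-CKD, or 0.087 without AKI-CKD mouse 2 and 0.043 without AKI-CKD + EGT mouse 2. The summed level of 9 S3 markers in PT cells, on total UMIs, had the same order of mice within each group. It was 530, 837 and 1136 CPM in Control and 663, 302 and 585 CPM in the AKI-CKD mice. With EGT it was 547, 756 and 740 CPM, where mice 2 and 3 were alike in this sum but not in Ace. S3-like cells were 34.9%, 38.5% and 38.2% of PT cells in Control and 34.9%, 30.3% and 37.1% in the AKI-CKD mice. With EGT they were 34.2%, 36.6% and 38.6%. The part of the marker sum and of the S3-like share in the result was not tested. Within S3-like cells alone Ace was 70.6 ± 24.5 CPM in Control, 40.9 ± 9.72 CPM in the AKI-CKD mice and 57.5 ± 13.4 CPM with EGT (SD, n = 3 each, on total UMIs). The ranges were 49.7 to 97.6, 33.0 to 51.8 and 48.5 to 73.0 CPM, so all 3 groups overlapped, and no test was made.

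**Figure D4:**
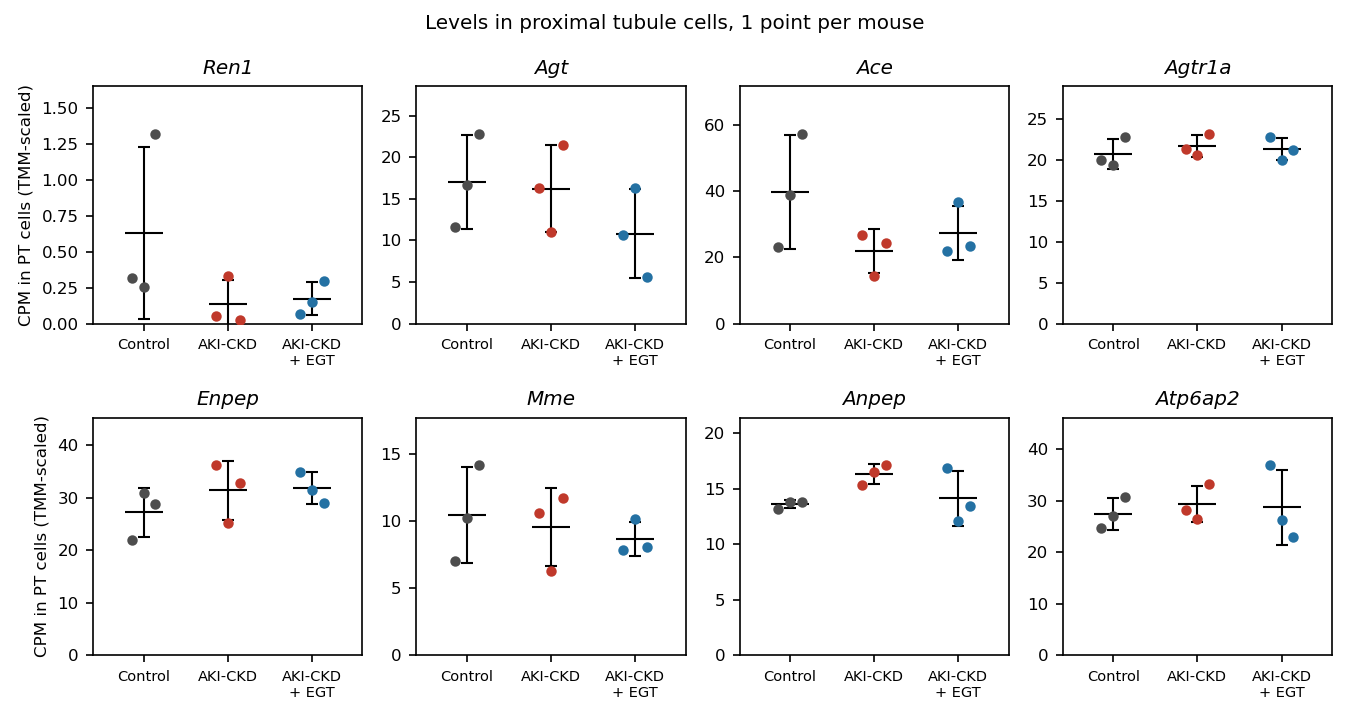
Levels of the 8 genes in PT cells as CPM on TMM-scaled library sizes, with 1 point per mouse and the group mean ± SD as bars (axes start at 0; SD bars that would pass below 0 are cut there). Ace had 23.1 to 57.4 CPM in Control and 14.4 to 26.8 CPM in the AKI-CKD mice, and for Anpep alone all AKI-CKD points were above all Control points.

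Anpep was the only member whose PT levels did not overlap between AKI-CKD (15.3, 16.5 and 17.2 CPM) and Control (13.2, 13.8 and 13.8 CPM). That is 1 of 8 members, where 20.2% of all genes tested did not overlap, and the log2 fold change was 0.26 (SE 0.13, adjusted p = 0.479). In AKI-CKD + EGT Anpep was 16.9, 12.1 and 13.4 CPM, a log2 fold change of -0.21 (SE 0.13, adjusted p = 0.469) from AKI-CKD, and 0 of 8 members were without overlap, where 21.1% of all genes were. These levels and fold changes use TMM factors, which scale the libraries as if most genes did not change. On total UMIs, an alternative chosen after seeing the data, the median log2 fold change of all PT genes moved by 0.22 to 0.21 after EGT, and Agtr1a did not overlap (23.0, 21.0 and 25.5 CPM against 20.6, 19.4 and 20.7 CPM, log2 fold change 0.19, adjusted p = 0.371), where 25% of genes did not. The fold changes after EGT of Agtr1a, Anpep, Atp6ap2 and Mme in PT cells turned positive on that scale, that of Agtr1a between AKI-CKD and Control turned negative (-0.02), and none was called. With TMM factors the other PT differences between AKI-CKD and Control were 0.07 for Agtr1a (95% interval -0.18 to 0.31), 0.21 for Enpep (-0.16 to 0.58), 0.10 for Atp6ap2 (-0.29 to 0.49), -0.13 for Mme (-0.73 to 0.47) and -0.07 for Agt (-0.88 to 0.74), all on the log2 scale. Between AKI-CKD + EGT and AKI-CKD they were -0.03 for Agtr1a (-0.27 to 0.22), 0.02 for Enpep (-0.35 to 0.39), -0.03 for Atp6ap2 (-0.42 to 0.36), -0.14 for Mme (-0.74 to 0.46) and -0.59 for Agt (-1.40 to 0.23). The intervals of Agtr1a were the narrowest, and those of Agt left room for a change of more than 1 on the log2 scale after EGT.

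**Figure D5:**
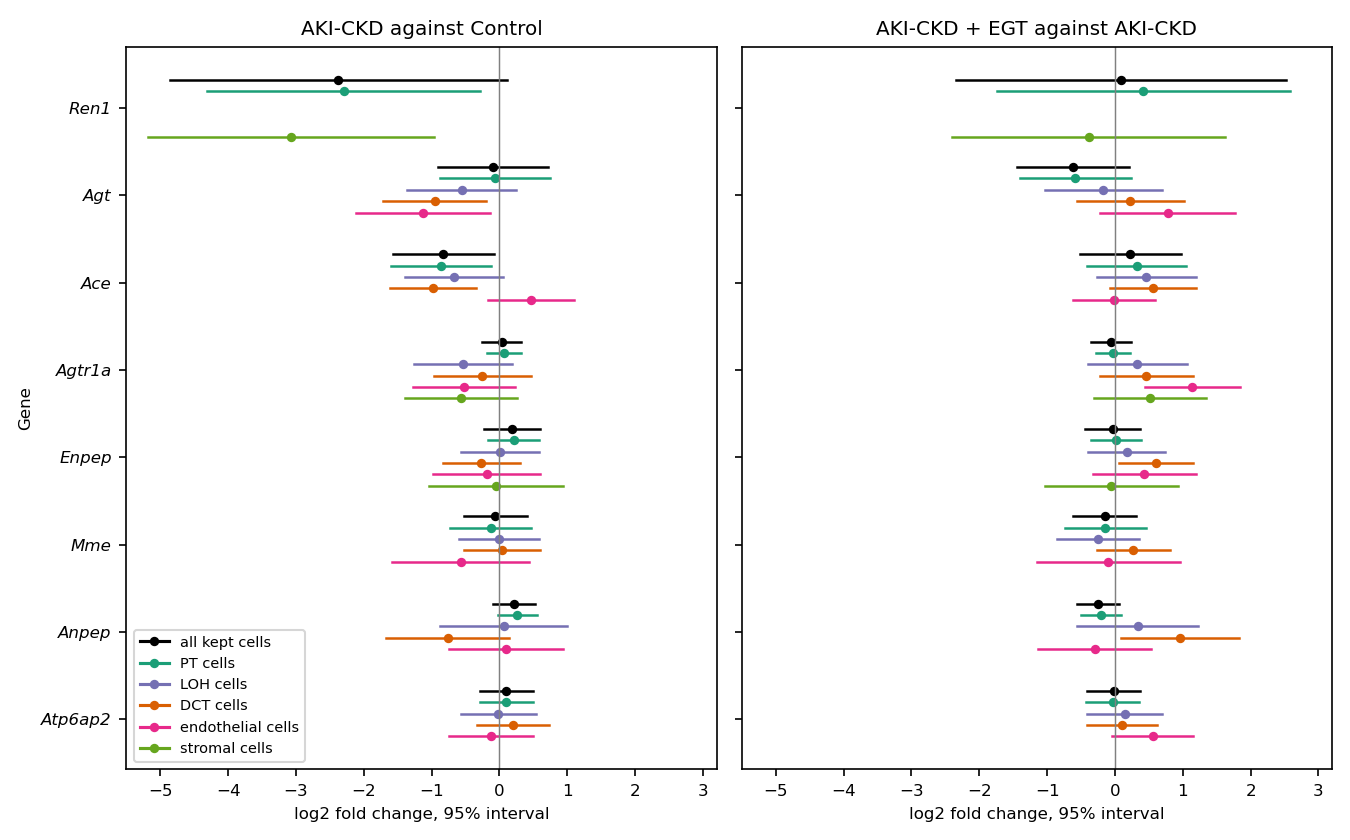
Log2 fold changes of the 8 genes (points) with 95% intervals (lines) in 6 populations for both comparisons. Most intervals included 0, Ren1 had the widest ones, and no adjusted p was under 0.05.

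Ren1 in PT cells was 0.32, 0.25 and 1.32 CPM in Control and 0.05, 0.33 and 0.03 CPM in the AKI-CKD mice, a log2 fold change of -2.30 (SE 0.91, adjusted p = 0.417). The highest PT value was again in Control mouse 3, whose renin-rich cell is described above. Without that mouse the log2 fold change was -1.14, and without AKI-CKD mouse 2 it was -3.95, and the part of free Ren1 mRNA in this level was not tested.

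In DCT cells Ace was 19.8, 27.9 and 17.4 CPM in Control and 13.4, 8.42 and 11.6 CPM in the AKI-CKD mice (log2 fold change -0.98, SE 0.30, adjusted p = 0.390), and Agt was 9.50, 12.8 and 13.4 CPM and 7.26, 5.26 and 5.78 CPM (-0.95, SE 0.36, adjusted p = 0.444). These 2 of 7 members did not overlap, where 16.2% of all genes did not. The 6 PT genes moved in the same way in DCT cells, with 6653 to 7716 CPM in Control and 4204 to 6615 CPM in the AKI-CKD mice, and the part of free PT mRNA was not tested. In AKI-CKD + EGT compared with AKI-CKD, Anpep alone did not overlap in DCT cells (8.11, 8.88 and 10.8 CPM against 3.35, 4.21 and 7.44 CPM, log2 fold change 0.96, SE 0.41, adjusted p = 0.311), where 18.7% of genes did not. All 7 members tested had a positive log2 fold change there, with a median of 0.46, compared with a median of 0.02 over all genes. The 6 PT genes in DCT cells were at 6027, 7403 and 6777 CPM with EGT and at 5223, 4204 and 6615 CPM in AKI-CKD, and their part was not tested. On total UMIs Enpep and Mme did not overlap either, and 19.3% of genes did not.

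In endothelial cells Agtr1a was 25.8, 19.0 and 21.4 CPM in AKI-CKD + EGT and 9.21, 11.3 and 8.68 CPM in AKI-CKD, without overlap (log2 fold change 1.14, SE 0.33, unadjusted p = 0.0037, adjusted p = 0.301), and it was 1 of 7 members, where 15.2% of genes did not overlap. Control mice had 19.1, 15.8 and 7.18 CPM and overlapped with both. Endothelial Ace was 25.7, 26.6 and 28.7 CPM in Control and 51.1, 31.0 and 29.9 CPM in the AKI-CKD mice (0.46, SE 0.29, adjusted p = 0.646), again 1 of 7 members without overlap, where 15.7% of genes had none, whereas on total UMIs no member was without overlap in this comparison. Endothelial Agt was 6.63, 11.4 and 12.6 CPM in Control and 6.70, 3.58 and 3.86 CPM in the AKI-CKD mice, which overlapped (-1.12, SE 0.46, unadjusted p = 0.029, adjusted p = 0.449). Over 9 mice endothelial Agt had a ratio of 1.05 to the 6 PT genes, at 7.47 CPM against 6.81 CPM in T cells. Endothelial Agtr1a had a ratio of 1.54, above 1 in 6 of 9 mice, and T cells had 10.6 CPM of it. The endothelial class joined a cluster of 3283 cells with 14.3 CPM of Agtr1a to a cluster of 330 cells with 25.6 CPM, summed over mice. The part of this mixture in the differences between groups was not tested. The 6 PT genes in endothelial cells were at 7372, 6509 and 7949 CPM in Control and 7564, 4163 and 6695 CPM in AKI-CKD. With EGT they were at 6527, 6891 and 6205 CPM, and the part of free PT mRNA was not tested. In stromal cells Agtr1a was 114, 68.1 and 78.6 CPM in Control, 57.7, 60.6 and 57.0 CPM in the AKI-CKD mice and 131, 58.1 and 80.7 CPM with EGT. The AKI-CKD values were below all Control values (log2 fold change -0.56, SE 0.39, adjusted p = 0.841), 1 of 3 members, where 12.8% of genes did not overlap, and on 7 to 12 Agtr1a UMIs per AKI-CKD mouse. No member of the stromal cells was without overlap in the second comparison, where 13.8% of genes were. The summed level of 12 immediate early and heat shock genes, which rise during tissue dissociation, ranged from 6826 to 23715 CPM between mice in mural cells, and its part in these differences was not tested.

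The other genes of the pathway gave no calls either. Of 19 further renin-angiotensin genes, 18 were in the files and 12 passed the filter in PT cells. None was called in either comparison by edgeR, although 1 and 5 had an unadjusted p under 0.05, where 10.9% and 15.2% of all PT genes had one. Their median log2 fold change was 0.11 in AKI-CKD and -0.10 after EGT, compared with -0.01 and -0.0091 for all genes, and on total UMIs it was 0.03 and 0.10, compared with -0.10 and 0.21 for all genes. The smallest p-values in AKI-CKD belonged to the lysosomal protease genes Ctsa, at 157 ± 3.28 CPM in Control and 212 ± 14.97 CPM in the AKI-CKD mice (log2 fold change 0.44, adjusted p = 0.347), and Ctsd (0.35, adjusted p = 0.459). After EGT they belonged to Ctsa, at 152 ± 21.7 CPM (-0.48, adjusted p = 0.212), and to the kallikrein gene Klk1 (1.68, adjusted p = 0.232), whose reads can be confused with those of its near-identical paralogs. Klk1 was at 67638 CPM in CNT cells, 21784 CPM in CD-PC cells and 410 CPM in PT cells, and the part of free mRNA from those cells in the PT value was not tested.

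Of 11 other surface peptidases of the PT, 10 passed the filter in PT cells and none was called by edgeR, with 1 and 2 at an unadjusted p under 0.05. Their medians were 0.17 and -0.33 on the log2 scale, or 0.085 and -0.13 on total UMIs. Mep1b, a meprin subunit gene, was at 10.4 ± 6.64 CPM in Control and 3.98 ± 1.63 CPM in the AKI-CKD mice (-1.38, adjusted p = 0.405), and Xpnpep2 differed by 0.39 (adjusted p = 0.455). After EGT, Folh1 differed by -0.52 (adjusted p = 0.309). All 14 V-ATPase genes, partners of Atp6ap2, passed the filter. In AKI-CKD 10 of them had a positive log2 fold change with a median of 0.19, and after EGT 0 had one, with a median of -0.22. The medians of all genes were -0.01 and -0.0091. On total UMIs 10 and 7 had a positive one, with medians of 0.098 and -0.0080, compared with -0.10 and 0.21 for all genes. None was called by edgeR, with 1 and 3 at an unadjusted p under 0.05. Atp6v0b (0.36, adjusted p = 0.428) and Atp6v1g1 (0.35, adjusted p = 0.474) had the smallest p-values in AKI-CKD, and Atp6v1e1 (-0.41, adjusted p = 0.265) and Atp6v0d1 (-0.32, adjusted p = 0.267) after EGT. Atp6ap2 itself differed by 0.10 and -0.03. Since the 2 comparisons share the AKI-CKD mice, opposite signs in them are not independent. In the 5 other populations none of the 3 lists had a called gene.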

How the data were processed

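The authors deposited for each of 9 mice raw UMI counts by gene and barcode, neither normalized nor pooled, made with PISA 1.0 per the file headers, with GRCm39 named in the submitters' processing notes. The aligner and annotation are not given in the sources used here. Groups and mice came from the labels. Cells with at least 1000 UMIs, 500 genes and at most 15% mitochondrial UMIs were kept (196925, more than the study retained with the same stated limits, for a reason not found). Clusters (Python 3.11.15, scanpy 1.11.5, 2000 variable genes without the members, 30 components, a Harmony-type correction, Leiden resolution 1.1) were named where at least 3 markers were 2 times higher than in other types. The podocyte and thin limb cluster and the mural cluster were divided at resolution 0.5 after the clusters were seen. Scrublet called 0 to 1 cells per library and was not usable, so doublets were not removed.

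UMI counts were summed per mouse and population and fitted with edgeR 4.0.16 (R 4.3.3, filterByExpr, TMM, quasi-likelihood F test, 9 mice). Adjusted p-values (Benjamini-Hochberg) cover every gene of a fit, also where printed without the tool. CPM by cell type used total UMIs, as did group values of mural Ren1, thin limb Agt, S3-like Ace and marker sums. CPM beside fitted fold changes otherwise used the TMM-scaled totals. On simulated PT counts the fit for AKI-CKD against Control recovered 58 of 100 genes changed by 1 and 85 of 100 changed by 2 on the log2 scale. For AKI-CKD + EGT against AKI-CKD it recovered 50 and 82. In all kept cells it recovered 48 and 77 in the first comparison and 40 and 78 in the second. Each simulation gave 6 to 9 false calls, and the smaller populations were not simulated. Other settings were DESeq2 1.42.0, no filter on low counts, other library sizes, total UMIs without TMM factors (added after seeing the data), cell limits and Ren1 limits, the 6 mice compared only, the replicate number as a block and each mouse left out. Genes named were the members, per list and comparison the 2 genes with the smallest p in PT cells, the 3 genes most like each member and a list of renin cell genes. A listed gene that this rule would name is not reported here. The members and lists were chosen with earlier results of these data known. Limits of zero counts cover counting error only, whereas the 95% intervals of fold changes come from the edgeR fit and include the spread between mice.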

Additional observations from a re-analysis of the deposited data

How the results depend on the processing

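Alternatives were counted for 44 of the 80 member fold changes. These were all members in all kept cells and PT cells, Ace and Agt in DCT cells, Ace and Agtr1a in endothelial cells and Ren1 and Agtr1a in stromal cells. The others, among them Anpep in DCT cells, Agt in endothelial cells and all in LOH cells, are not in this count. Of 631 alternatives to the 44 fold changes, 574 kept the direction and 1 passed the threshold. That was Ren1 in stromal cells of AKI-CKD compared with Control without the filter on low counts (-2.98, edgeR, adjusted p = 4.197e-24, 1 member called). It used the same mural counts as the fit with the filter, whose fold change rests on Control mouse 3 as described above. With at least 10 Ren1 UMIs the difference in renin-rich cells of AKI-CKD compared with Control was 0.0118 per 10000, and leaving out each mouse gave -1.18 to 0.508, and 0.387 to 2.08 for AKI-CKD + EGT compared with AKI-CKD. Members not overlapping in PT cells numbered 1 to 3 and 0 to 3 when each mouse was left out. Groups separate more easily with a mouse fewer, and the share of all genes was not given for these settings, so these counts say nothing of the members. With all mice kept and TMM factors, the sign also turned for Atp6ap2 in all kept cells after EGT with no mitochondrial limit (0.0045), for Enpep in PT cells after EGT with no filter (-0.016) and for Ace in endothelial cells after EGT with a mitochondrial limit of 10% (0.052). The mural Ren1 level, taken on total UMIs, also turned after EGT without the richest cell of each mouse (-0.011 in place of 0.044, difference in mean log2(CPM + 1)). On total UMIs without TMM factors, chosen after seeing the data, 1 member did not overlap in PT cells after EGT, and the sign turned after EGT for Agtr1a (0.18), Enpep (0.20), Mme (0.096) and Atp6ap2 (0.21) in all kept cells, for Agtr1a (0.19), Mme (0.082), Anpep (0.0070) and Atp6ap2 (0.17) in PT cells and for Ace in endothelial cells (0.070). In AKI-CKD compared with Control it turned for Agtr1a in all kept cells (-0.040) and in PT cells (-0.022). The median of all genes moved by 0.23 in all kept cells and by 0.22 in PT cells after EGT. The causes were not tested. Leaving out each mouse turned the sign of 22 fold changes. In all kept cells, AKI-CKD compared with Control, the ranges were Agt -0.41 to 0.16, Agtr1a -0.068 to 0.13, Atp6ap2 -0.0035 to 0.19, Mme -0.24 to 0.15 and Ren1 -3.99 to 0.041. In PT cells, AKI-CKD compared with Control, the ranges were Agt -0.32 to 0.21, Atp6ap2 -0.00060 to 0.19 and Mme -0.35 to 0.16. In stromal cells, AKI-CKD compared with Control, the range was Ren1 -4.27 to 0.35. In all kept cells, AKI-CKD + EGT compared with AKI-CKD, the ranges were Ace -0.050 to 0.38, Agtr1a -0.16 to 0.037, Atp6ap2 -0.24 to 0.13, Enpep -0.22 to 0.065 and Ren1 -0.76 to 1.69. In PT cells, AKI-CKD + EGT compared with AKI-CKD, the ranges were Agtr1a -0.084 to 0.019, Atp6ap2 -0.26 to 0.12, Enpep -0.13 to 0.13, Mme -0.37 to 0.030 and Ren1 -0.17 to 2.06. In DCT cells, AKI-CKD + EGT compared with AKI-CKD, the range was Agt -0.0072 to 0.52. In endothelial cells, AKI-CKD + EGT compared with AKI-CKD, the range was Ace -0.33 to 0.26. In stromal cells, AKI-CKD + EGT compared with AKI-CKD, the range was Ren1 -0.76 to 0.84. The replicate number as a block turned Ren1 in all kept cells after EGT to -0.27 and called no member. Same-numbered mice had correlations of their deviations from -0.45 to 0.37, with 4 of 36 above 0.1, so the numbers were not taken as pairs. Over all genes, calls depended on the setting, with 8 and 0 in PT cells by edgeR, 203 and 477 by DESeq2 and 89 and 235 without the filter on low counts. Without AKI-CKD + EGT mouse 1 they numbered 228 in PT cells after EGT, and 243 in LOH, 361 in DCT and 8 in stromal cells, whereas leaving out each other mouse gave 0 in PT cells and 0 or 1 in LOH cells. For AKI-CKD compared with Control in PT cells they ranged from 0 without Control mouse 2 to 17 without Control mouse 1. Over the 6 populations and both comparisons, edgeR called 0 to 33 genes, DESeq2 0 to 477 and edgeR without the filter 5 to 438.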
